A study of Mus musculus with 24 samples.

Results

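The genes described here are 9 genes of steroid hormone synthesis, *Star*, *Cyp11a1*, *Cyp11b1*, *Cyp17a1*, *Cyp19a1*, *Hsd3b1*, *Hsd17b1*, *Hsd17b3* and *Srd5a1*. The rule lists them by name, although earlier results of these data were known when they were chosen, and they were set beside all 22367 protein-coding genes of the mouse mm9 annotation. H3K4me3, a histone mark of active and poised promoters, H3K27me3, the mark laid down by Polycomb Repressive Complex 2 at silenced genes, and total H3 were profiled by ChIP-seq in purified cells of the fetal mouse gonad before and after sex determination. XY and XX progenitors were sorted at E10.5 from male and female SF1-eGFP gonads. Sertoli cells, the supporting cells of the testis, were sorted at E13.5 from male Sox9-CFP gonads, and pregranulosa cells, their ovarian counterparts (named granulosa in the labels), were sorted at E13.5 from female TESM-CFP gonads. All embryos were on a C57BL/6 x CD1 background, the labels give no genotype beyond the reporter transgene, and each replicate pooled the gonads of several embryos. The reporter defines each population, so that the progenitors are all cells with *Sf1* reporter activity and the E13.5 cells are those in which a *Sox9* reporter, or a mutated form of its testis enhancer, was active.

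Steroid hormones are made from cholesterol in a chain of enzyme steps. STAR brings cholesterol into the mitochondrion, CYP11A1 cleaves its side chain to give pregnenolone, and the HSD3B enzymes convert pregnenolone and other early steroids to the forms from which active hormones are made. CYP17A1 leads to androgens, HSD17B3 makes testosterone, SRD5A1 reduces testosterone to dihydrotestosterone, CYP19A1 (aromatase) and HSD17B1 make estradiol, and CYP11B1 completes corticosterone in the adrenal cortex. In the fetal testis most of these steps take place in Leydig cells, whereas *Hsd17b3* is known as a Sertoli gene at this stage in the mouse. A promoter that carries both H3K4me3 and H3K27me3 is called bivalent, a state seen at many developmental genes that are silent but open to activation.

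The 24 samples were 2 replicates for each of the 3 targets and 4 populations, and the values used here are 8 lists of enriched regions, 1 per mark and population, in each of which both replicates had been pooled. Spread between replicates could therefore not be computed, no p-value compares populations, and a difference between lists may be no larger than that between replicates. A list gives the place of a mark relative to H3, with no level of it. The lists were called from 6470151 to 49254553 tags, with XY progenitors lowest for both marks among the lists of known depth. The depth and the calling thresholds of the 2 pregranulosa lists are unknown. A region of the smallest width the caller could give, 1001 bp for H3K4me3 and 5001 bp for H3K27me3, made up 48.2% of H3K4me3 regions in XY progenitors and 24.9% to 31.7% in the other populations, and 35.6% of H3K27me3 regions in XY progenitors against 16.9% to 21.4%. The sorted populations were checked on marker genes. All 6 Sertoli markers carried H3K4me3 without H3K27me3 in Sertoli cells, including *Sox9* and *Amh*, whereas 5 of them had both marks in pregranulosa cells. Of 6 pregranulosa markers, 6 had both marks in Sertoli cells and 3, among them *Foxl2*, had both in pregranulosa cells, so that *Foxl2* did not part the populations by this measure.

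Promoters were taken as the 4001 bp window that reaches 2 kb to each side of the annotated transcription start site (TSS), and a promoter was called marked when at least 1 bp of it was covered by a region. H3K4me3 was called at 2 to 5 of the 9 promoters, depending on the population. It was present at 2 of them in XY progenitors, where 64.2% of all protein-coding promoters were marked, at 5 in XX progenitors (66% of all promoters), at 5 in Sertoli cells (64.9%) and at 4 in pregranulosa cells (66.3%). H3K27me3 was called at 2 promoters in XY progenitors against 23% of all promoters, 2 in XX progenitors against 24.8%, 1 in Sertoli cells against 23.5%, and 1 in pregranulosa cells against 23.7%, counts that 9 genes do not set apart from the background. All 9 genes are autosomal, and over the autosomes the H3K27me3 shares were 22.8% in XX progenitors and 22.1% in pregranulosa cells. Both marks together were found at 1 promoter in XY progenitors (20.4% of all), 2 in XX progenitors (22.4%), 1 in Sertoli cells (18.7%) and 0 in pregranulosa cells (20.4%). Promoter state (both marks, either or neither) was not the same in all 4 lists at 6 of the 9 genes, all but *Star*, *Cyp11b1* and *Cyp19a1*. The share was 22.6% of all protein-coding genes and 20.7% of autosomal ones. *Cyp11a1* counted through a single region of minimum width, and *Hsd3b1* through its absence from the H3K4me3 list of XY progenitors, the shallowest of known depth. This count was not repeated under other settings. In pooled cells, both marks on the same chromosomes cannot be told apart from each mark in a different fraction of the cells, and a mark in few cells cannot be told apart from a weak mark in all.

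**Figure D1:**
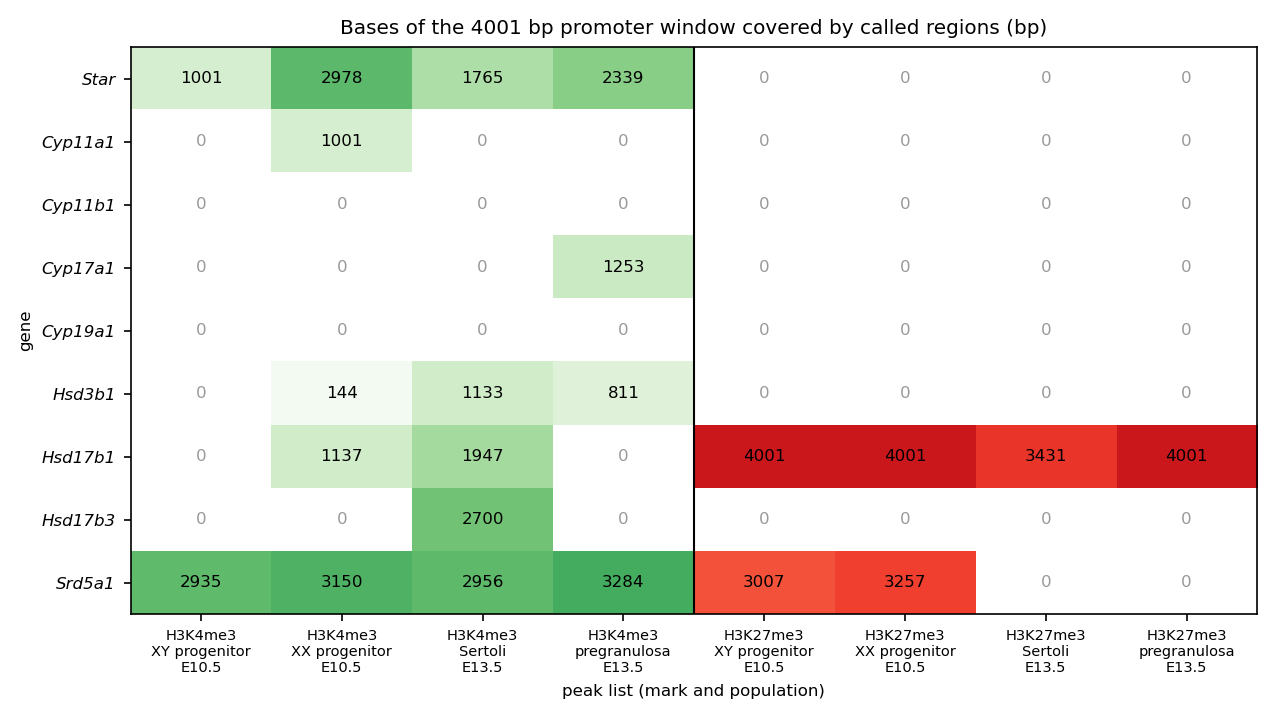
Bases of each 4001 bp promoter window (TSS ± 2 kb) covered by called regions, for the 9 genes (rows) in the 8 lists (columns, H3K4me3 in green and H3K27me3 in red), with darker colour for more bases. *Star* and *Srd5a1* have H3K4me3 in all 4 populations, *Hsd17b1* has H3K27me3 in all 4, and *Cyp11b1* and *Cyp19a1* have 0 bp in every list.

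The promoters of these genes are poor in CpG dinucleotides, a property that the choice of the genes did not use. Within 500 bp of the TSS, the ratio of observed CpGs to those expected from the content of C and G had a median of 0.205 over the 9 genes and of 0.549 over all protein-coding genes. *Hsd3b1* was lowest at 0.0817, which is percentile 4.71 of all genes, followed by *Cyp11a1* at 0.118, *Cyp11b1* at 0.145 and *Star* at 0.164. *Hsd17b3* had 0.205, *Cyp17a1* 0.212, *Cyp19a1* 0.249 and *Hsd17b1* 0.378. *Srd5a1* stood apart at 0.765, percentile 74.5. The 250 bases that end 1 base before the TSS are shown for *Star*, *Cyp17a1* and *Hsd17b3*, which are CpG-poor and carried H3K4me3 without H3K27me3 in at least 1 population, and for *Hsd17b1* and *Srd5a1*, the 2 promoters that carried H3K27me3. *Cyp11a1* and *Hsd3b1* were also CpG-poor with H3K4me3 alone in at least 1 population, and are not shown. Each sequence is that of the mm9 assembly, written 5′ to 3′ in the direction of the gene, and the capitals mark CpG dinucleotides.
Star (chr8:26918696-26918945, mm9, plus strand): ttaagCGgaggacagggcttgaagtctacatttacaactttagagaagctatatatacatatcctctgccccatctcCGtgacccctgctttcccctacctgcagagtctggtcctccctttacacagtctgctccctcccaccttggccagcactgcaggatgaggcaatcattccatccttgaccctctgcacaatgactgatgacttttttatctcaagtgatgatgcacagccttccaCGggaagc
Cyp17a1 (chr19:46747465-46747714, mm9, minus strand): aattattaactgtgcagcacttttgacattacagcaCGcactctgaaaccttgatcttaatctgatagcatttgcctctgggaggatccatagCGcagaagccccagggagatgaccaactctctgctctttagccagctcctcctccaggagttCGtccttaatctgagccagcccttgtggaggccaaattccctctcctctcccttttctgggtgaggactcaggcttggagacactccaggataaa
Hsd17b3 (chr13:64190510-64190759, mm9, minus strand): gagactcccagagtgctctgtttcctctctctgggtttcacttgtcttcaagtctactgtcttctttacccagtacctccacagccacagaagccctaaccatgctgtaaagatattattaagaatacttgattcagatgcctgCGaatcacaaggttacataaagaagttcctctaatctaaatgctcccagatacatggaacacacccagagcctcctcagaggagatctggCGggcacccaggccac
Hsd17b1 (chr11:100939475-100939724, mm9, plus strand): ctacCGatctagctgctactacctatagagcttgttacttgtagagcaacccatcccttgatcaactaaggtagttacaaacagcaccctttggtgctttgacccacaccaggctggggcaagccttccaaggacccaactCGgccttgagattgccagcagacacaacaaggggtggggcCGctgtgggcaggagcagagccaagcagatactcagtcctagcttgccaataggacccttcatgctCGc
Srd5a1 (chr13:69750321-69750570, mm9, minus strand): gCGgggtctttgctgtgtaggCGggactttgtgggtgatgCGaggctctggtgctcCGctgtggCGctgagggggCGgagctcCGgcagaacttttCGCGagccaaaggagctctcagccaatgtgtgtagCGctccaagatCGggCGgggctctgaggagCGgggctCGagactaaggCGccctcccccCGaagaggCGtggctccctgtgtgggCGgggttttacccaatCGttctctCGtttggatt
The *Srd5a1* stretch holds 20 CpGs and is 63.6% G and C, whereas the other 4 stretches hold 2 to 4 CpGs each.

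Promoter CpG content went with the marks over the genome. Among the 7455 protein-coding genes in the third with the lowest ratio, at most 0.311, H3K4me3 was called at 13.6% of promoters in XY progenitors, 16.1% in XX progenitors, 15% in Sertoli cells and 17.1% in pregranulosa cells. Of the 9 genes, 7 belong to that group, all but *Hsd17b1* and *Srd5a1*, and H3K4me3 was called at 1, 3, 3 and 3 of these 7 in the same order. H3K27me3 was called at 9.12% to 14.6% of promoters in that group and at 0 of the 7 in each population. The H3K4me3 counts over the 7 genes thus stood beside a low share over CpG-poor promoters in general. H3K4me3 that was present in some populations and absent from others was found at 13.7% of the CpG-poor promoters and at 4 of the 7, *Cyp11a1*, *Cyp17a1*, *Hsd3b1* and *Hsd17b3*. With only 7 genes, these shares are a description.

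**Figure D2:**
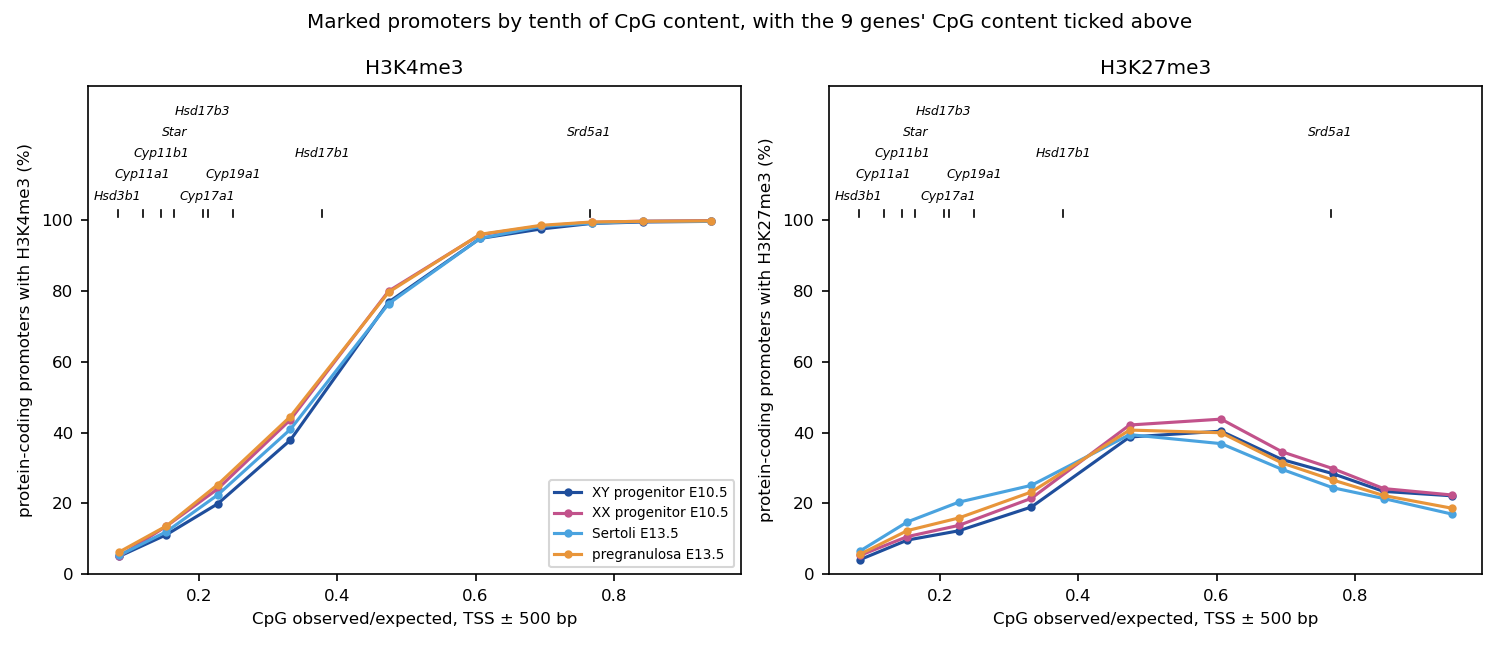
Share of protein-coding promoters with H3K4me3 (left) and H3K27me3 (right) in each population, in %, against the observed/expected CpG ratio within 500 bp of the TSS, 1 point per decile of genes, with the 9 genes' ratios ticked above 100%. The H3K4me3 share climbs from 5.01% in the lowest decile of XY progenitors to nearly all promoters in the highest, and 7 of the 9 genes lie where the curve is low.

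*Star*, the gene of cholesterol import, had called H3K4me3 in every population and H3K27me3 in none. It lies on chromosome 8 from 26918946 to 26925782 (mm9, plus strand). H3K4me3 covered 1001 bp of its promoter window in XY progenitors, 2978 bp in XX progenitors, 1765 bp in Sertoli cells and 2339 bp in pregranulosa cells. The XY progenitor value was a single region of minimum width, from 320 to 1320 bp relative to the TSS, that did not reach the TSS itself. It was absent when the widest 75% of regions was kept. Regions of equal width were then kept in chromosome order, so this loss is arbitrary. The other 3 populations had a region over the TSS, from -747 to 1497 bp in XX progenitors, -503 to 758 bp in Sertoli cells and -480 to 1072 bp in pregranulosa cells, and each had a second one upstream that began between -2782 and -2518 bp. Among all marked promoters the median cover was 2195 bp in XY progenitors, 2803 bp in XX progenitors, 2531 bp in Sertoli cells and 2721 bp in pregranulosa cells, so that *Star* lay above the median in XX progenitors and below it in the other 3 populations. H3K4me3 in all 4 populations was found at 61.9% of all promoters, and within the set at *Star* and *Srd5a1*.

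*Cyp11a1*, whose product makes pregnenolone, had H3K4me3 mainly upstream of its promoter window and H3K27me3 inside the gene. It lies on chromosome 9 from 57862820 to 57874827 (plus strand). A region of H3K4me3 upstream of the window was present in all 4 populations, from -4023 to -3023 bp in XY progenitors, -4048 to -2792 bp in XX progenitors, -4169 to -2749 bp in Sertoli cells and -4177 to -2719 bp in pregranulosa cells. A second upstream region, beginning between -6418 and -6177 bp, was called in the same lists except that of XY progenitors. The TSS itself was covered in XX progenitors and in no other list, by a region of minimum width from -848 to 152 bp. This call was lost when every H3K4me3 list was reduced to as many regions as the shortest list, that of XY progenitors, holds. The loss is arbitrary, since regions of equal width were kept in chromosome order. The equally wide region at *Hsd3b1* in XX progenitors was kept.

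H3K27me3 in the body of *Cyp11a1* was called in all 4 populations. The region ran from 4596 to 9596 bp in XY progenitors and from 4870 to 9870 bp in XX progenitors, both of minimum width, from 5718 to 12087 bp in Sertoli cells and from 3969 to 11671 bp in pregranulosa cells. It covered 5001, 5001, 6290 and 7703 bp of the 12008 bp gene in that order. In each list the gene's promoter was free of called H3K27me3. This arrangement, H3K27me3 in the gene body in every population with a promoter free of it in every population, was found at 1.48% of all protein-coding genes and at *Cyp11a1* alone among the 9.

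*Hsd3b1* encodes a member of the HSD3B family, whose genes lie beside each other on chromosome 3 and resemble each other in sequence, so that reads may have been shared or lost between copies. *Hsd3b1* lies from 98656117 to 98663717 (minus strand). H3K4me3 covered 0 bp of its promoter window in XY progenitors, 144 bp in XX progenitors, 1133 bp in Sertoli cells and 811 bp in pregranulosa cells. None of these regions reached the TSS. They lay within the gene, from 1857 to 2857 bp in XX progenitors, 868 to 3115 bp in Sertoli cells and 1190 to 5007 bp in pregranulosa cells, and covered 1001, 2248 and 3818 bp of the 7601 bp gene. The nearest H3K4me3 region in XY progenitors was 81211 bp away. With a window of 1 kb to each side, the *Hsd3b1* promoter was marked in Sertoli cells alone. Each of the 5 other *Hsd3b* genes read, *Hsd3b2* to *Hsd3b6*, lacked H3K4me3 in the promoter window in all 4 populations. H3K27me3 was called in the window of *Hsd3b6* in XY progenitors. The bodies of these genes were not read.

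*Cyp17a1*, which leads to androgens, carried promoter H3K4me3 in pregranulosa cells and in no other population. It lies on chromosome 19 from 46741655 to 46747464 (minus strand). The covered bases were 0 in the XY progenitor, XX progenitor and Sertoli lists and 1253 in pregranulosa cells, in 1 region from -592 to 660 bp that includes the TSS. The pregranulosa call remained under each of the 7 other definitions of a marked promoter that were tried. None of them could have removed a region of this width over the TSS, so this adds no support to the call. Minimum-width regions made up 30.9% of this list, and the definitions that dropped narrow regions took only such regions from it. Past the 3′ end of the 5810 bp gene, H3K4me3 was called from 6075 to 7075 bp in XY progenitors and 6047 to 7047 bp in Sertoli cells, and in pregranulosa cells a region from 5425 to 7157 bp reached into the gene. H3K27me3 was called nowhere near the gene, and the closest region lay 28832 bp from the TSS, in XY progenitors. H3K4me3 in pregranulosa cells and in no other population was found at 0.975% of all promoters, or 2.15% of the CpG-poor ones.

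*Hsd17b3*, which encodes the enzyme of testosterone synthesis, carried promoter H3K4me3 in Sertoli cells and in no other population. It lies on chromosome 13 from 64159582 to 64190509 (minus strand). The covered bases were 0 in XY progenitor, XX progenitor and pregranulosa cells and 2700 in Sertoli cells, close to the median of 2531 bp over all marked promoters in that list. The region ran from -699 to 2435 bp, was 3135 bp wide and included the TSS. A second H3K4me3 region lay in an intron, outside all annotated exons, and was called in all 4 populations, from 6839 to 7839 bp in XY progenitors, 6479 to 8221 bp in XX progenitors, 5878 to 8223 bp in Sertoli cells and 6302 to 8483 bp in pregranulosa cells. The gene body was thus marked in every population, by 1001, 1743, 4782 and 2182 bp in that order. No H3K27me3 was called at its promoter or in its body. H3K4me3 in Sertoli cells and in no other population was found at 0.715% of all promoters, or 1.72% of the CpG-poor ones. The Sertoli call at *Hsd17b3* also held under each of the 7 other definitions. None of them could have removed a region of this width over the TSS, so this adds no support to the call.

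*Srd5a1*, which makes dihydrotestosterone, was the CpG-rich promoter of the set, and its H3K27me3 was called at E10.5 and not at E13.5. It lies on chromosome 13 from 69712327 to 69750320 (minus strand). H3K4me3 covered 2935 bp of its window in XY progenitors, 3150 bp in XX progenitors, 2956 bp in Sertoli cells and 3284 bp in pregranulosa cells, in a region that began between -2082 and -2023 bp and ended between 934 and 1283 bp. H3K27me3 covered 3007 bp in XY progenitors, 3257 bp in XX progenitors, and 0 bp in Sertoli and pregranulosa cells. The promoter was therefore bivalent in both progenitor populations and H3K4me3 only in both E13.5 populations, which was the case for 1.99% of all protein-coding genes. The progenitor regions ran from -1006 to 3994 bp and from -1256 to 3744 bp and were both of minimum width. The nearest H3K27me3 region was 32241 bp from the TSS in Sertoli cells and 88474 bp in pregranulosa cells. When the widest 75% of each list was kept, H3K27me3 at *Srd5a1* remained in XY progenitors alone. This does not part the progenitor lists, because both regions are of minimum width. Such regions made up 35.6% of the XY progenitor list and 21.4% of the XX progenitor list. Regions of equal width were kept in chromosome order.

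*Hsd17b1*, which reduces estrone to estradiol, was the gene of the set with promoter H3K27me3 in every population. It lies on chromosome 11 from 100939725 to 100941841 (plus strand), and the TSS of the next gene, *Coasy*, is 4154 bp downstream. H3K27me3 covered the whole 4001 bp window in XY progenitor, XX progenitor and pregranulosa cells and 3431 bp in Sertoli cells, and the whole 2117 bp gene in all 4. H3K27me3 in all 4 populations was found at 15.9% of all promoters. The region was 8392 bp wide in XY progenitors, 16173 bp in XX progenitors, where it also took in the TSSs of *Naglu* and *Coasy*, 8290 bp in pregranulosa cells and 5001 bp, the minimum, in Sertoli cells. The Sertoli call was absent when the widest 75% of regions was kept, and also when the lists were brought to equal length.

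H3K4me3 at *Hsd17b1* covered 0 bp of the window in XY progenitors, 1137 bp in XX progenitors, 1947 bp in Sertoli cells and 0 bp in pregranulosa cells. The promoter was thus H3K27me3 only in XY progenitor and pregranulosa cells and bivalent in XX progenitor and Sertoli cells. The XX progenitor region ran from 864 to 2171 bp. The Sertoli region ran from 54 to 5892 bp without a break, across the gene and the *Coasy* TSS, which has H3K4me3 of its own in all 4 populations. In XY progenitor and pregranulosa cells the *Coasy* region began at 3369 and 3014 bp, beyond the end of *Hsd17b1*. No H3K4me3 region included the *Hsd17b1* TSS in any list.

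*Cyp19a1* and *Cyp11b1* had neither mark at the promoter in any population, which was the case for 26.2% of all protein-coding genes. *Cyp19a1*, the aromatase gene, spans 102174 bp of chromosome 9 from 54013744 to 54115917 (minus strand). The annotation gives it a second transcript start at position 54041249, which is 74668 bp into the gene. In pregranulosa cells an H3K4me3 region of minimum width, from 73973 to 74973 bp, lay over that start, and the other 3 lists had none within 2 kb of it. In Sertoli cells a region of minimum width lay in an intron from 23977 to 24977 bp. *Cyp19a1* therefore counts as marked in pregranulosa cells if every annotated start is used, and as unmarked if the gene start alone is used. *Cyp11b1*, on chromosome 15 from 74665004 to 74672073 (minus strand), had no region of either mark in its body, and the nearest region was H3K4me3 in pregranulosa cells, from 14773 to 16230 bp.

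**Figure D3:**
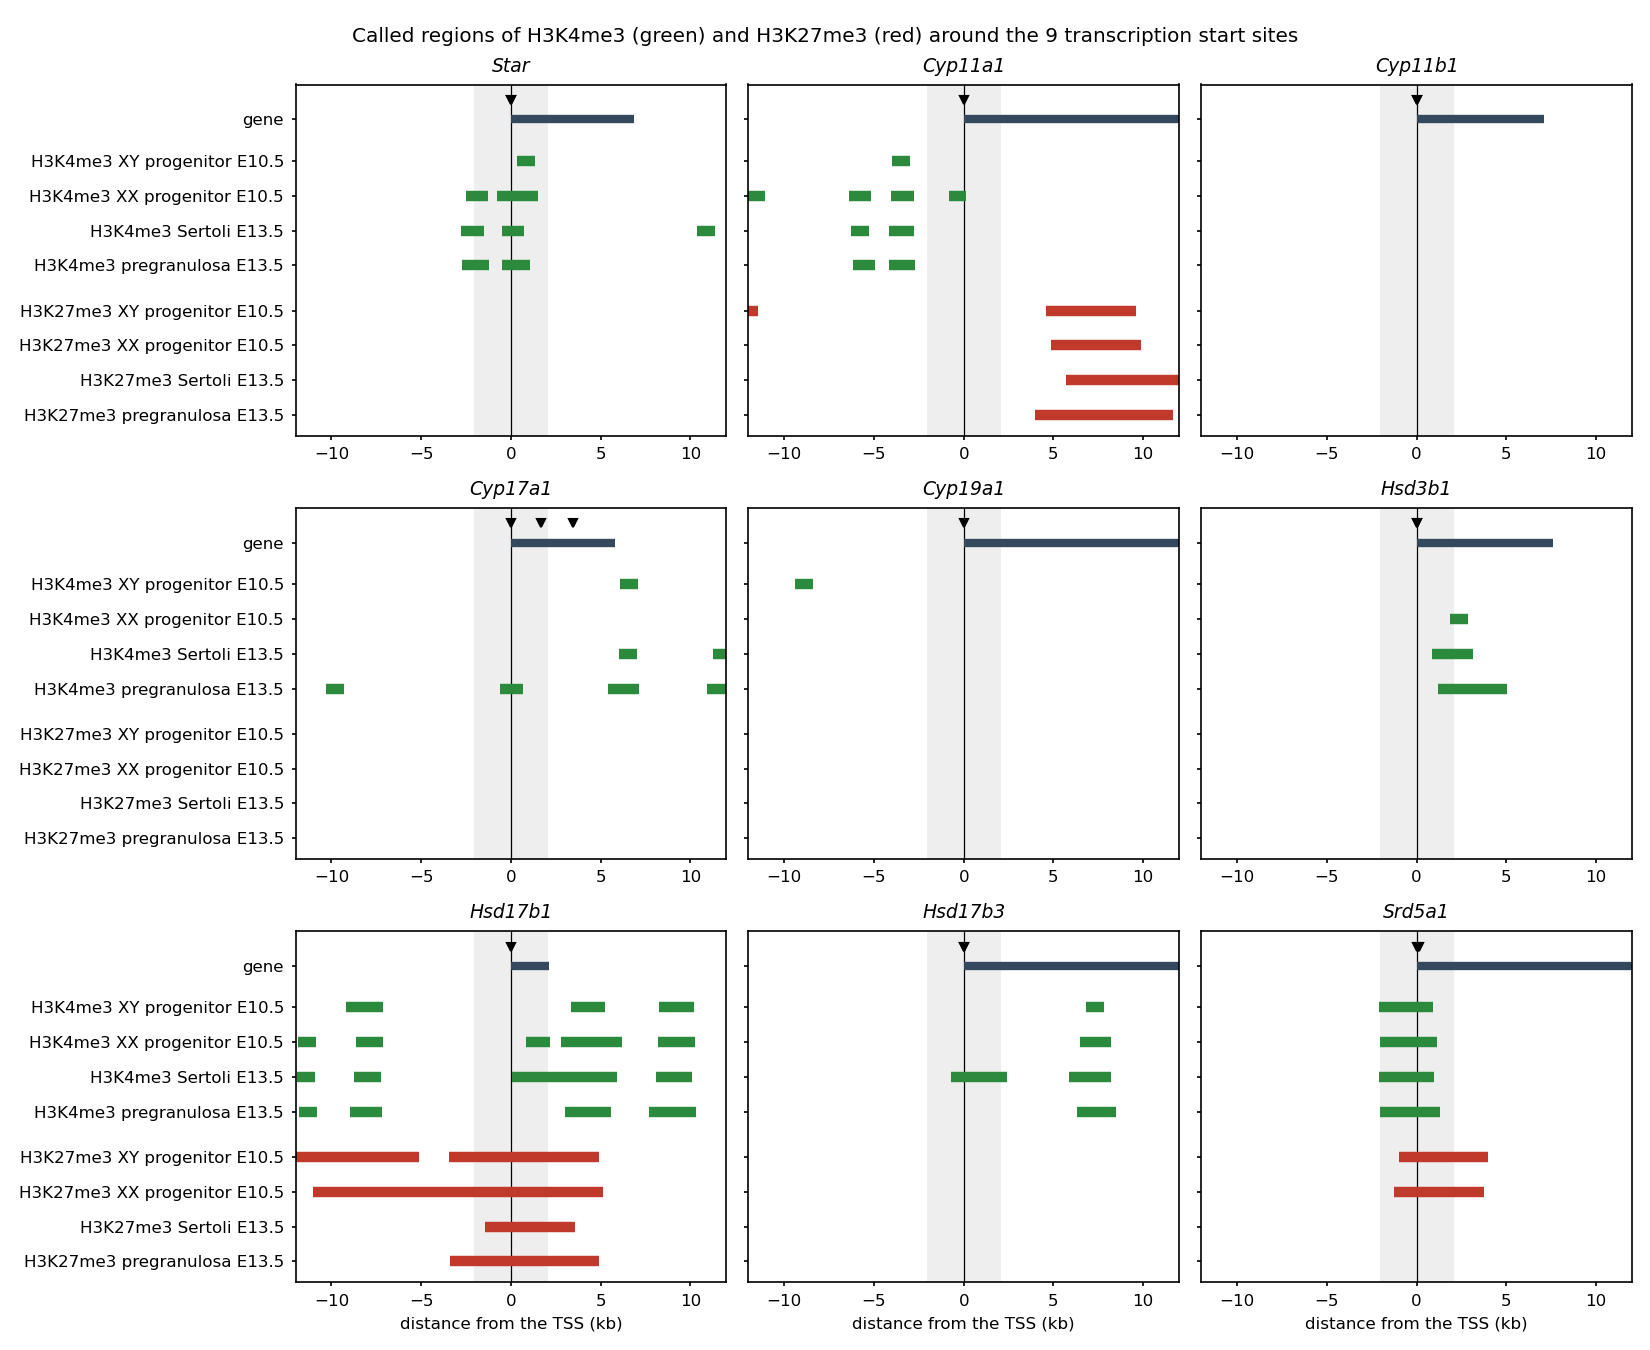
Called regions of H3K4me3 (green bars) and H3K27me3 (red bars) within 12 kb of the TSS of each gene, 1 row per list, with distance from the TSS in kb in the direction of the gene, the promoter window in grey and annotated transcript starts as triangles. The Sertoli row of *Hsd17b3* and the pregranulosa row of *Cyp17a1* have a bar over the TSS that the other rows lack, and *Srd5a1* has red bars in the 2 progenitor rows only.

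The comparison of each progenitor population with the E13.5 cells of the same sex addresses what differed at these genes across sex determination. Between XY progenitor and Sertoli cells, H3K4me3 was called at 3 promoters in Sertoli cells alone, *Hsd3b1*, *Hsd17b1* and *Hsd17b3*, and at 0 promoters in XY progenitors alone. Over all protein-coding promoters these directions held 2.77% and 2.06%. Because the XY progenitor list had the fewest tags, 10162534 against 31104760 for Sertoli cells, depth moved with this difference, and its part was not tested. Between XX progenitor and pregranulosa cells, *Cyp11a1* and *Hsd17b1* had H3K4me3 in the progenitors alone (1.42% of all promoters) and *Cyp17a1* in pregranulosa cells alone (1.76%).

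For H3K27me3 the differences between stages lay at a single gene. *Srd5a1* had promoter H3K27me3 in XY progenitors and not in Sertoli cells, as did 5.21% of all promoters, and in XX progenitors and not in pregranulosa cells, as did 4.44%. In the other direction, 0 of the 9 genes had H3K27me3 in Sertoli cells and not in XY progenitors (5.71% of all), and 0 had it in pregranulosa cells and not in XX progenitors (3.29%). At the 7 CpG-poor promoters H3K27me3 was absent from every list.

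Over whole gene bodies, from the annotated start to the end of the gene, more of the set was marked. H3K4me3 was called in 3 gene bodies in XY progenitors (68.7% of all genes) and in 6 in each of XX progenitors (70.1%), Sertoli cells (69.4%) and pregranulosa cells (70.8%). The 6 genes differed between populations, since *Cyp11a1* and *Hsd17b1* counted in XX progenitors where *Cyp17a1* and *Cyp19a1* counted in pregranulosa cells. H3K27me3 was called in 3 gene bodies in XY progenitors (25.5% of all genes), 3 in XX progenitors (27.3%), 2 in Sertoli cells (26.4%) and 2 in pregranulosa cells (26.6%). *Cyp11a1* and *Hsd17b1* accounted for 2 of these in each population and *Srd5a1* for the other in the progenitors. When the first 2 kb of each gene was left out, H3K4me3 in gene bodies was called for 1 gene in XY progenitors, *Hsd17b3*, and for 3 in XX progenitors. The Sertoli and pregranulosa lists had 4 such genes each. No share over all genes is given for this setting, so these counts are no comparison with other genes.

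**Figure D4:**
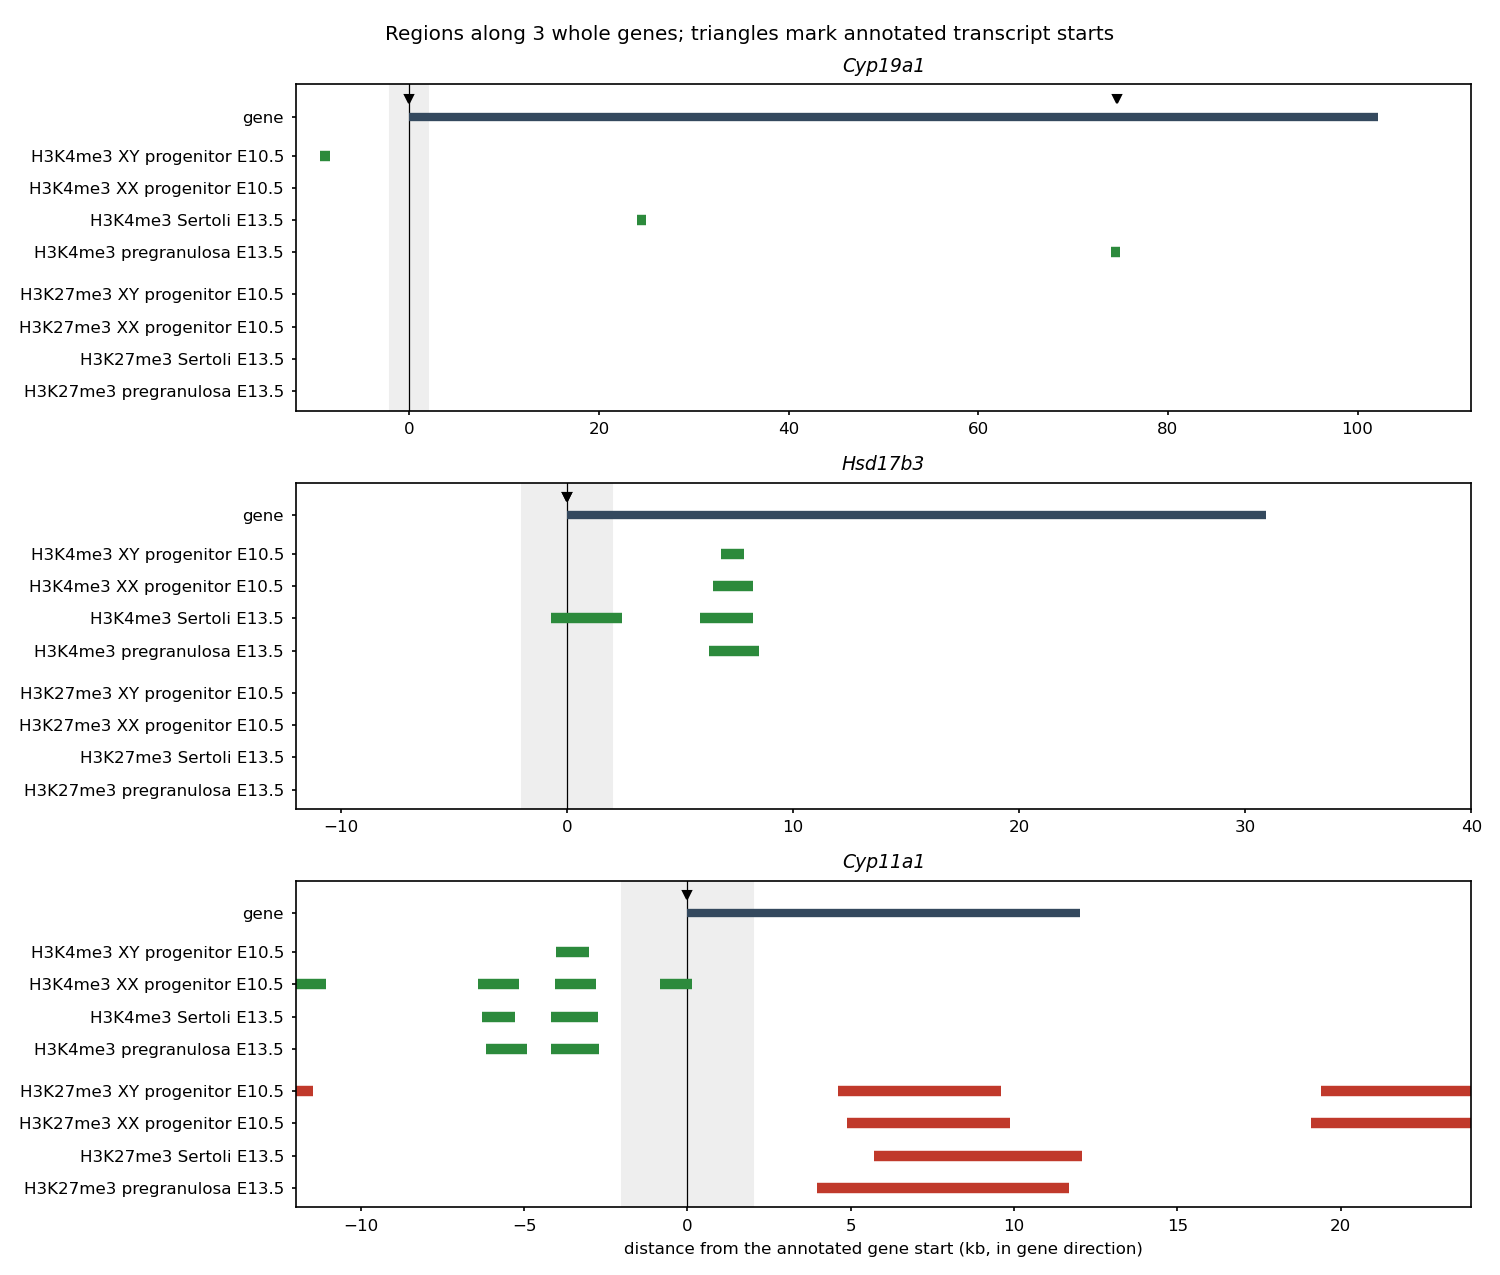
Called regions along the whole of *Cyp19a1*, *Hsd17b3* and *Cyp11a1*, with distance from the gene start in kb in the direction of the gene, H3K4me3 in green, H3K27me3 in red, the promoter window in grey and annotated transcript starts as triangles. The pregranulosa bar of *Cyp19a1* sits at the second triangle, *Hsd17b3* has an intronic green bar in all 4 H3K4me3 rows, and *Cyp11a1* has a red bar inside the gene in all 4 H3K27me3 rows.

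The 9 promoters were also searched for short sequence matches within 500 bp of the TSS, on both strands. The extended SF-1 site CAAGGTCA was found at 0 of 9, and at 5.36% of all protein-coding promoters. The GATA motifs AGATAA and TGATAA were found at 6 of 9, all but *Cyp11a1*, *Hsd17b3* and *Srd5a1*, and at 44% of all promoters. The full cAMP response element TGACGTCA was found at 0 of 9 and at 3.21% of all promoters. *Star* has its GATA match, on the strand opposite to the gene, with its first base at -38 bp. These matches describe the sequence and carry no information on binding.

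The wider pathway was described on 4 lists of genes, of which 43 of 44 have an entry in the annotation, with the same windows. In XY progenitor, XX progenitor, Sertoli and pregranulosa cells respectively, 20, 19, 23 and 25 of the 43 had H3K4me3 only, 9, 12, 4 and 6 had both marks, 2, 0, 2 and 0 had H3K27me3 only, and 12, 12, 14 and 12 had neither. Over all protein-coding genes H3K4me3 only was found at 43.8%, 43.6%, 46.2% and 45.9% and both marks at 20.4%, 22.4%, 18.7% and 20.4%. Electron donors and cofactors did not differ between populations, with H3K4me3 only at 3 of 4 genes, *Fdx1*, *Fdxr* and *Cyb5*, in each list.

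Among 11 genes of cholesterol supply, 10, 11, 10 and 11 carried H3K4me3 in the same order of populations. *Lipe*, which encodes hormone-sensitive lipase, had 1147 bp in XX progenitors, 667 bp in pregranulosa cells and 0 bp in both XY populations. *Tspo*, which encodes a protein of the outer mitochondrial membrane, had H3K27me3 over 3742 bp in XY progenitors and 3585 bp in XX progenitors and 0 bp in both E13.5 populations, with H3K4me3 over 2002 to 3139 bp in all 4. *Scarb1*, the receptor for high-density lipoprotein, had H3K27me3 over 3391 bp in XX progenitors alone. *Tspo* thus had the same order of states as *Srd5a1*.

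Among 18 genes of the same enzyme families, 8, 8, 8 and 9 carried H3K4me3. *Hsd11b2*, which inactivates glucocorticoids, had H3K4me3 in all 4 populations, over 1930 to 4001 bp, and H3K27me3 over 3788 bp in Sertoli cells, 4001 bp in pregranulosa cells and 0 bp in both progenitor populations, the reverse of *Srd5a1*. *Hsd17b11* had H3K27me3 over 1543, 1423, 584 and 0 bp. *Hsd17b10*, an X-linked gene, had H3K27me3 over the whole window in XX progenitor and pregranulosa cells and over 0 bp in both XY populations.

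Of 10 genes that control steroid synthesis, 8 had a state that differed between populations, against 6 of the 18 family members, 3 of the 11 cholesterol genes and 0 of the 4 cofactor genes, and 22.6% of all protein-coding genes. Among these 10, 5 were bivalent in XY progenitors (20.4% of all promoters) and 6 in XX progenitors (22.4%), against 0 in Sertoli cells (18.7%) and 3 in pregranulosa cells (20.4%). *Nr5a1*, which encodes SF-1, the activator of steroidogenic genes whose reporter marks the progenitors, had H3K4me3 over 2841, 3063, 2838 and 2869 bp and H3K27me3 over 4001 bp in both progenitor populations and 0 bp in Sertoli and pregranulosa cells. *Gata4* and *Gata6*, which encode GATA factors of the gonad, likewise had H3K27me3 over all 4001 bp in both progenitor populations and 0 bp in both E13.5 populations. *Lhcgr*, the luteinizing hormone receptor gene of Leydig cells, had H3K4me3 over 1793, 1563 and 2061 bp in XY progenitor, XX progenitor and pregranulosa cells, and in Sertoli cells 0 bp of H3K4me3 and 4001 bp of H3K27me3. At E10.5 H3K27me3 was called at 6 of the 10 in each progenitor population, where 23% and 24.8% of all promoters had it.

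**Figure D5:**
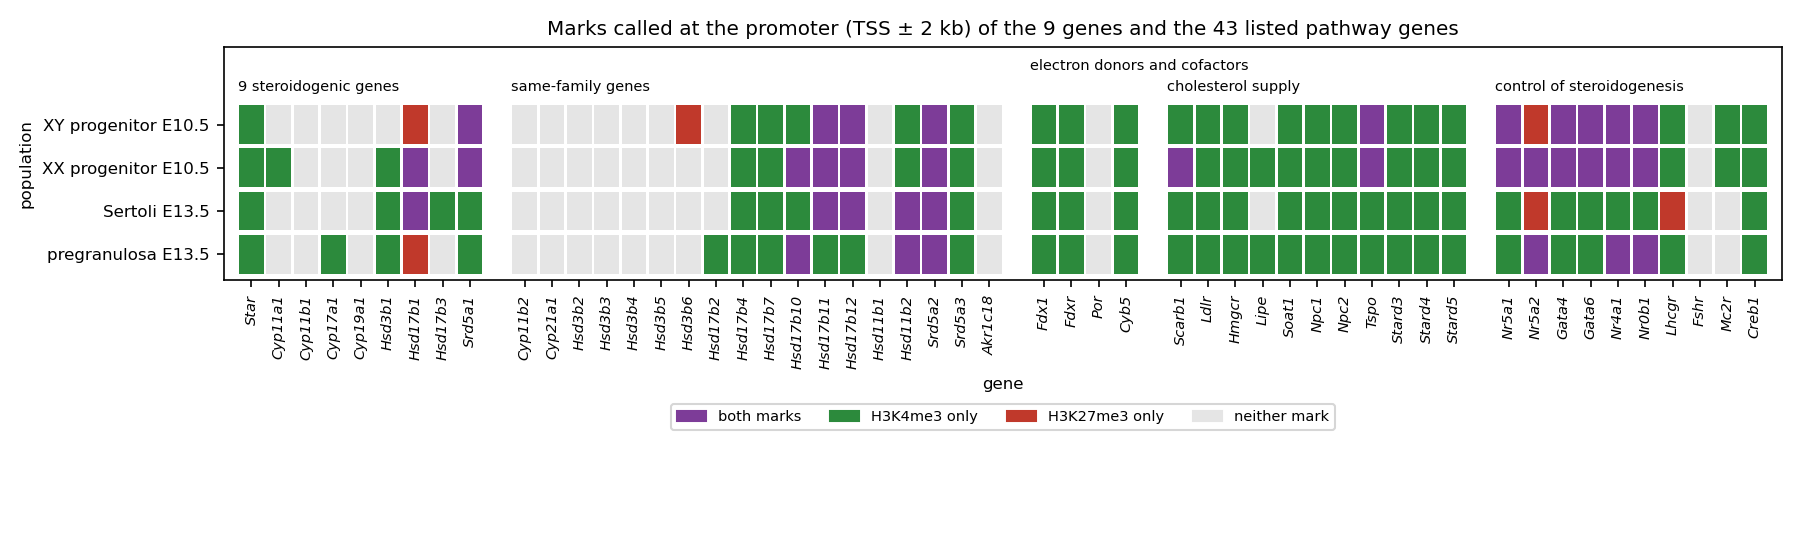
State of each promoter (TSS ± 2 kb) in the 4 populations (rows) for the 9 genes and the 43 pathway genes (columns), in purple for both marks, green for H3K4me3 only, red for H3K27me3 only and grey for neither. Purple cells are frequent among genes that control steroid synthesis in the 2 progenitor rows, with 5 and 6 of 10 genes, and absent from that group in the Sertoli row.

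Markers of other cells that a sort could hold were read in the same way. Of 6 fetal Leydig markers, 4 are genes of the set itself, *Star*, *Cyp11a1*, *Cyp17a1* and *Hsd3b1*, and the others are *Lhcgr* and *Insl3*, which had H3K27me3 over 4001 bp in all 4 populations and H3K4me3 over 100, 2713, 193 and 2945 bp. H3K4me3 was called at 3, 5, 3 and 5 of the 6 in XY progenitor, XX progenitor, Sertoli and pregranulosa cells, beside 64.2%, 66%, 64.9% and 66.3% of all promoters. These counts include the genes of the set and are no separate check on them. Without those genes, *Insl3* had called H3K4me3 in all 4 populations and *Lhcgr* in all but Sertoli cells. Of 4 germ cell markers, 1, 1, 2 and 1 had H3K4me3, with *Dazl* at 1787, 2064, 1256 and 2134 bp in the 4 populations. *Pou5f1* had H3K4me3 in Sertoli cells alone, over 1001 bp, the minimum region width, and H3K27me3 over 4001 bp in all 4 populations. *Ddx4* and *Nanos3* had 0 bp of both marks in every list. Of 4 endothelial markers, 0, 0, 0 and 1 had H3K4me3, the last being *Cdh5* with 1001 bp, the minimum region width, in pregranulosa cells. *Pecam1*, *Tie1* and *Tek* had 0 bp of both marks in every list. The part of other cells in these calls was not tested.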

How the data were processed

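H3K4me3, H3K27me3 and H3 ChIP-seq was performed by the authors on MNase-digested chromatin of sorted cells, with Drosophila carrier chromatin added. Reads were trimmed with Trim Galore, aligned to mm9 with Bowtie and handled with SAMtools, and HOMER findPeaks was run in histone style with H3 as input and a peak size of 1000 bp for H3K4me3 and 5000 bp for H3K27me3. Versions and the treatment of reads with several matches are not given in the sources used here. The authors deposited 8 peak lists, 6 of which have a header and a score column that holds the same value in every row, so the deposited score was not used as a level. Per the headers of those 6 lists, peaks had at least 4 times the input. The Poisson p-value over input was 0.0001 and the Poisson p-value threshold 0.001, and both replicates were joined before calling. The 2 pregranulosa lists have no header, so these settings are unknown for them. The pregranulosa H3K27me3 list held no overlapping peaks, with 12609 peaks and 12609 regions, whereas 36469 peaks gave 9693 regions in XY progenitors. The methods describe calling per replicate, but lists per replicate were not analysed here. H3 samples entered only as the input.

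The deposited start and end positions were converted to 1-based positions, and overlapping peaks of a list were joined into regions. Genes were taken from GENCODE M1 and sequence from NCBIM37 (mm9), and 0 regions lay past the end of a chromosome. Overlaps were counted for the promoter (TSS ± 2 kb, at least 1 bp) and the gene body, for the 9 genes and for 22367 protein-coding genes on chromosomes 1 to 19, X and Y. Of the pathway lists, at most 3 genes per list whose state differed between populations were named with values, by the number of lists in which they left their commonest state and then by symbol, plus *Nr5a1*. The members and lists were chosen with earlier results of these data known. As alternatives, 500 bp of overlap was required, or windows of TSS ± 1 kb, TSS ± 5 kb or any annotated transcript start were used. Others kept the widest 75% of regions, cut lists to the length of the shortest of the mark, joined regions within 1 kb, left out the first 2 kb of gene bodies, or counted autosomes. Overlap counting was tested on simulated data. Python 3.11.15, matplotlib 3.10.9 and bedtools 2.31.1 were used.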

Additional observations from a re-analysis of the deposited data

Results flagged for a closer look

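H3K4me3 cover of the *Star* promoter window differed between E10.5 and E13.5 in opposite directions in the 2 sexes. From XY progenitor to Sertoli cells it was 764 bp higher, at 1001 and 1765 bp, and from XX progenitor to pregranulosa cells it was lower, at 2978 and 2339 bp, a difference of -639 bp. The same held for *Hsd17b1*, which was 1947 bp higher in XY cells, at 0 and 1947 bp, and differed by -1137 bp in XX cells, at 1137 and 0 bp. Each value comes from 1 pooled list, so the difference between the sexes was not tested. The XY progenitor list, the starting point of both XY differences, had the fewest tags of the H3K4me3 lists with a known depth, and the part of depth was not tested. Both results were picked because the sexes moved in opposite directions.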

How the results depend on the processing

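Of 113 counts and shares under alternative settings, 99 stayed within 1.5 times the reported count, 14 moved and 0 reversed, and of 126 per-gene numbers of marked populations 118 stayed within 1.5 times and 8 moved. Apart from the autosomal background, shares over all genes are not given under these settings, so the counts are no comparison with other genes. With TSS ± 5 kb, H3K4me3 was called at 4 promoters in XY progenitors, H3K27me3 at 2 in pregranulosa cells, and both marks at 3 in XY progenitor and 2 in pregranulosa cells. The wider window takes in the *Coasy* start and the upstream and intragenic regions of *Cyp11a1*, so that *Hsd17b1* and *Cyp11a1* had H3K4me3 in 4 populations each and *Cyp11a1* H3K27me3 in 3. With the widest 75% of regions, H3K4me3 was called at 1 promoter in XY and 3 in XX progenitors, H3K27me3 at 1 in XX progenitor and 0 in Sertoli cells, and both marks at 1 in XX progenitor and 0 in Sertoli cells. *Cyp11a1* then had H3K4me3 in 0 populations, *Star* in 3 and *Hsd3b1* in 2, and H3K27me3 was called in 1 population at *Srd5a1* and in 3 at *Hsd17b1*. With lists of equal length, H3K27me3 and both marks were called at 0 promoters in Sertoli cells, and *Cyp11a1* again had H3K4me3 in 0. Where a cut dropped only part of the minimum-width regions, those kept were taken in chromosome order, so the choice among them is arbitrary. The widest 75% left no minimum-width region in the XX progenitor lists of both marks or in the Sertoli and pregranulosa H3K27me3 lists. Such regions had made up 24.9%, 21.4%, 18.2% and 16.9% of these lists. The cut to equal length likewise left none in the Sertoli and pregranulosa H3K27me3 lists. Without the first 2 kb of gene bodies, H3K4me3 was called in 1 gene in XY and 3 in XX progenitors, and in 4 genes in each E13.5 population. The window of TSS ± 1 kb left *Hsd3b1* marked by H3K4me3 in 1 population, and any annotated start added 1 population for *Cyp19a1*. The requirement of 500 bp, the joining of regions within 1 kb and the autosomal background moved no count by over 1.5 times, although *Hsd3b1* had H3K4me3 in 2 populations when 500 bp was required. No paired analysis was possible because each list pools both replicates, and leaving out a replicate was not possible for the same reason.

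The lists hold calls without levels, and depth and calling thresholds are unknown for pregranulosa cells. A promoter without a called region may carry a mark below the threshold of 6 tags for H3K4me3 in XY progenitors, 21 in XX progenitors and 12 in Sertoli cells, and of 14, 55 and 89 tags for H3K27me3. A call in 1 list and not in another is therefore not shown to be a difference in the level of the mark.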
